A study of Mus musculus with 63 samples.

Results

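The SLC25 genes encode the mitochondrial carriers, and their messenger RNA was compared in the heart of 8 inbred mouse strains. Members were taken by name alone, as every gene whose symbol is Slc25a followed by a number. The table of 19220 genes holds 44 of them, and 41 were among the 16425 genes with enough counts to be tested. The remaining 3 were Slc25a2, Slc25a21 and Slc25a43, with median counts of 1, 2 and 4 per library.

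The study measured polyA RNA of heart tissue by RNA-seq in the inbred founders of the Diversity Outbred stock. The strains are labelled 129, AJ, B6, NOD, NZO, PWK and WSB, with 8 libraries each, and Cast, with 7, which makes 63 libraries. Every group received the same high-fat, high-sugar diet, with 45% fat in the labels, so there was no control diet, no treatment and no engineered allele. The labels used here give neither sex nor age, and nothing beyond the titles says that the libraries of a strain come from separate animals, so p-values measure the spread between these libraries.

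SLC25 carriers sit, with a few exceptions, in the inner mitochondrial membrane, which is otherwise closed to charged metabolites. Each moves a substrate or swaps a pair of them, such as ADP against ATP, aspartate against glutamate, or acylcarnitine against carnitine. The heart makes most of its ATP in mitochondria and much of it from fatty acids, so the carriers for adenine nucleotides, phosphate, carnitine esters and the malate-aspartate shuttle are the best studied ones in this tissue.

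Library totals ran from 21.8 M to 42.9 M counts with a median of 30.4 M, and mitochondrial genome transcripts took between 15.9% and 31.1% of them. Members together took 0.501% to 0.684%. Levels are given as CPM, counts scaled to a common library size, with TMM between libraries (a normalization factor from the bulk of genes). Summed markers of cardiomyocytes were high in every library, at 36544 CPM or more, as the tissue label says. Library WSB_1 stood apart: it had that lowest marker sum against a WSB median of 62764 CPM, and it was the highest or lowest of its strain for 32 of the 41 members (11 highest, 21 lowest). NZO_8 was at an end of its strain for 25 members and Cast_1 for 20. Cast_1 also held skeletal muscle markers at 65.1 CPM, against at most 3.48 CPM in any other library. Where leaving out WSB_1 or Cast_1 changed a WSB or Cast call described below, the result without it is given. Changes in other strains without WSB_1 are counted only within the totals of the closing section. NZO_8 was left out only when each library was left out in turn.

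The adenine nucleotide carrier of heart and skeletal muscle dominated the family. Per kilobase of exon, Slc25a4 stood at 1216 CPM on average, which was 61.2% of the summed per-kilobase level of all 44 members. The phosphate carrier Slc25a3 followed with 209 CPM per kb (10.5%), the 2-oxoglutarate/malate carrier Slc25a11 with 153 (7.68%) and the second ADP/ATP carrier Slc25a5 with 122 (6.13%). These 4 kept their ranks when levels were taken per length of the longest transcript. Slc25a34, which has no settled substrate, came next at 48.3 CPM per kb, and the lowest were the 2 untested Slc25a2 (0.0392) and Slc25a21 (0.0231).

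**Figure D1:**
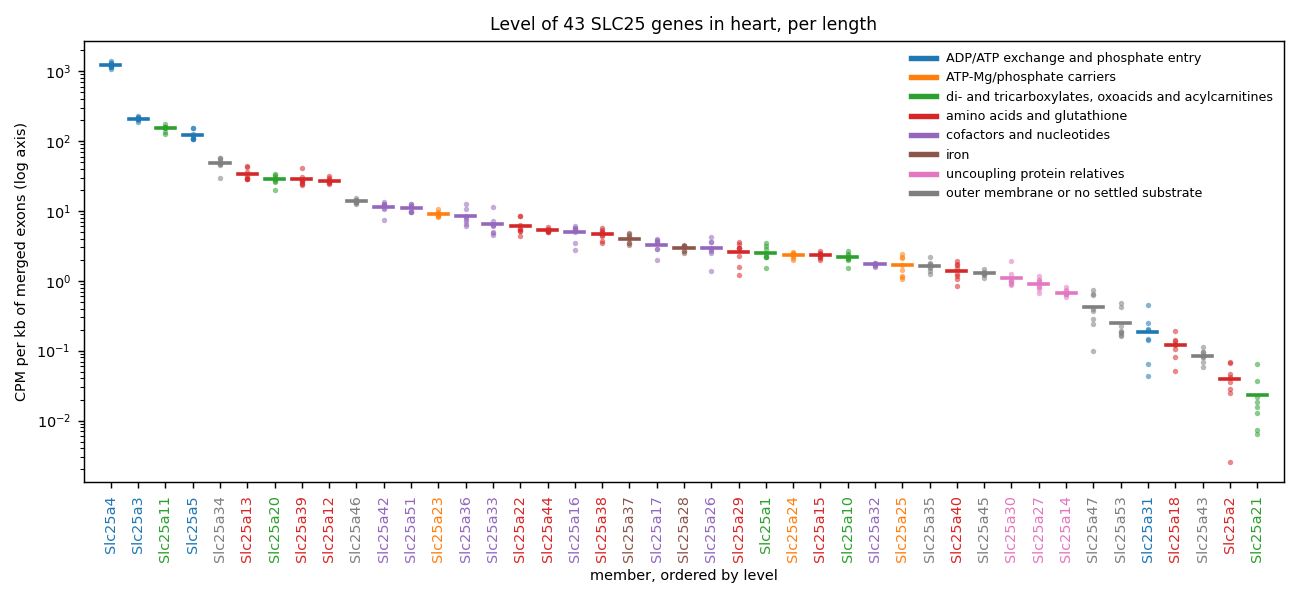
Expression level of the carriers in heart, in CPM per kb of merged exons on a log axis, ordered by level. Each dot is the mean of a strain (7 or 8 libraries), the line is the mean over all libraries and the colour is the role group; Slc25a4 lies at 1216 and Slc25a21 at 0.0231, while the strain means of most members lie close together on this scale.

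The share of Slc25a4 in the family varied by strain from 57.5% ± 1.13 (SD, n = 8) in NOD to 64.3% ± 3.11 (SD, n = 7) in Cast. WSB had 63.7% ± 4.95 (SD, n = 8), a value that includes 75.8% in WSB_1, where many other members were low. The summed level of the family ran from 1842 ± 190 CPM per kb (SD, n = 8) in NOD to 2181 ± 135 (SD, n = 7) in Cast.

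Most carriers differed between strains, to about the extent that genes in general did. A test over all 8 strains at once (edgeR's quasi-likelihood F test, Benjamini-Hochberg adjusted over 16425 genes, threshold 0.05) was passed by 36 of the 41 members, or 87.8%, against 90.3% of all genes tested. Strain means lay at least 1 log2 unit apart in 14 members that passed (34.1%, against 38.4% of all genes tested). They were Slc25a1, a16, a18, a25, a26, a29, a30, a31, a33, a34, a36, a40, a47 and a53. The median distance between the highest and lowest strain was 0.79 log2 units for members and 0.78 for all genes tested.

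Libraries of the same strain were alike in most members. The median coefficient of variation within a strain was 12.0% for members and 14.6% for all genes tested. Strain accounted for a median of 0.509 of the variance (adjusted R squared) in members and 0.443 in all genes tested. The members that did not pass were Slc25a32 (adjusted p = 0.392), Slc25a46 (0.246), Slc25a45 (0.129), Slc25a14 (0.0836) and Slc25a28 (0.0596).

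Each strain was then set against the mean of the other 7 on the log scale. In AJ 12 members were higher and 7 lower, where 21.1% and 18.1% of all genes were. In Cast 11 were higher and 15 lower (30.9% and 29.3% of all genes), and in PWK 10 and 14 (27.4% and 26.8%). WSB had 12 higher and 10 lower (25.6% and 19.8%), NZO 11 and 5 (22.5% and 18.6%) and B6 9 and 6 (17.5% and 14.3%). In 129 the numbers were 7 and 8 (16.8% and 14.1%), and in NOD 6 and 6 (19.8% and 13.9%). As shares of the 41 members these counts ran from 12.2% (lower in NZO) to 36.6% (lower in Cast), within 10 percentage points of all genes in each case. These 8 contrasts share libraries, so they are not independent of each other. Without WSB_1 the WSB counts became 13 and 10 (23.4% and 20.1% of all genes). Without Cast_1 the Cast counts became 11 and 14 (28.9% and 27.8%).

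**Figure D2:**
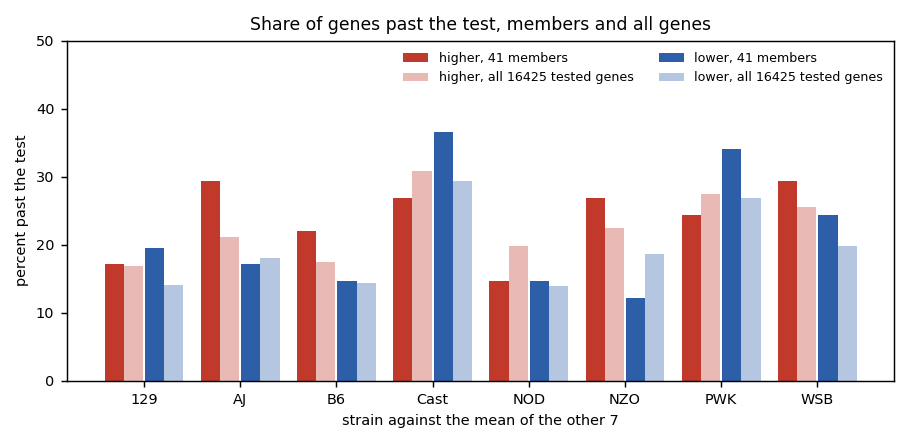
Percent of genes past the test against the mean of the other 7 strains, for the 41 tested carriers and for all tested genes, higher and lower, by strain. Bars start at 0; carriers lower in Cast reach 36.6% against 29.3% of all genes, and carriers lower in NZO 12.2% against 18.6%.

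**Figure D3:**
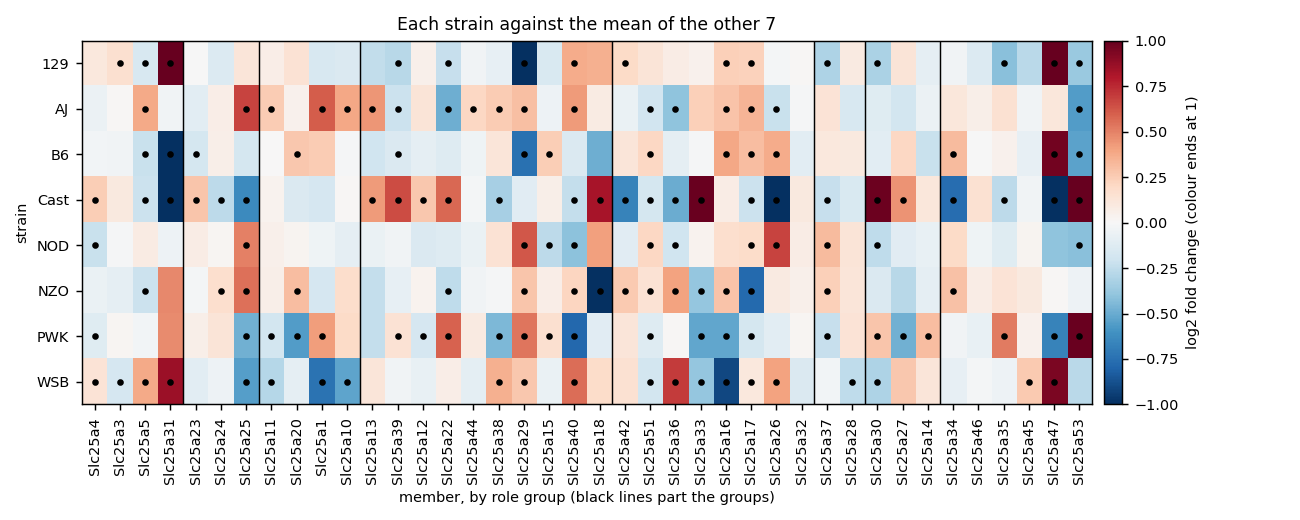
Log2 fold change of tested carriers (columns, ordered by role group) in each strain (rows) against the mean of the other 7, with colour ends at 1 and a black dot where the change passed the test. The deepest lows in Cast are Slc25a31 (-2.16) and Slc25a47 (-2.15), both at low counts, and then Slc25a26 (-1.18), all beyond the colour end. Slc25a53, Slc25a33 and Slc25a30 are the strongest highs in Cast.

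No member had a strain whose libraries all lay above every other library, where 5.57% of all genes did. In 3 of 41 (7.32%, against 3.9% of all genes) every library of a strain lay below all others: Slc25a17 in NZO, and Slc25a26 and Slc25a42 in Cast. All of these carry cofactors or methyl donors and are described in their group. These 3 also separated when WSB_1, AJ_3, Cast_1 or the Cast libraries 1, 5 and 6 were left out. Apart from slight rescaling, leaving out libraries cannot undo a separation, so this is no test of it. Without Cast_1, 4 members lay below all others in a strain. Without the Cast libraries 1, 5 and 6 there were 5, among them Slc25a47 in Cast, and 2 lay above all others, Slc25a23 and Slc25a39 in Cast. The shares of all genes in these settings were not counted. Leaving out libraries makes separation easier for any gene, so the higher counts are not read as a result about the members.

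ADP/ATP exchange and phosphate entry bring the substrates of ATP synthase into the matrix. All 4 tested carriers of this group passed the test over all strains, with 7 higher and 9 lower calls in single strains, and the 3 abundant ones differed by small amounts. For this and the later groups, 90.3% of all genes tested passed over all strains. Single-strain calls in a given direction took 13.9% to 30.9% of all genes, depending on the strain. No group was tested as a set. Slc25a4, the ADP/ATP carrier of heart and muscle (chr8:46206797-46211284, minus strand, GRCm38), had 2939 CPM in its lowest, 3272 in its median and 3771 in its highest Cast library. In NOD the lowest, median and highest were 2155, 2427 and 3045 CPM. Cast libraries therefore ran higher than NOD, with an overlap in which the highest NOD library exceeded the lowest Cast library. Slc25a4 was higher in Cast by 0.24 ± 0.05 (log2 fold change ± SE, adjusted p = 8.03e-06) and in WSB by 0.14 ± 0.04 (0.00985). Slc25a4 was lower in PWK (-0.12 ± 0.05, 0.0246) and NOD (-0.22 ± 0.05, 8.64e-05), and Cast exceeded NOD directly by 0.41 ± 0.06 (7.06e-08). No difference between neighbours in the order of the 8 strains passed the test.

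Slc25a5, the ADP/ATP carrier of growing and many other cell types (chrX:36795651-36798807, plus strand), ranked the strains differently. WSB libraries ran from 188 to 275 CPM with a median of 254, and AJ from 232 to 279 with a median of 245. B6 libraries ran from 163 to 182 CPM with a median of 173, so all AJ libraries, and all WSB libraries, lay above every B6 library. Slc25a5 was higher in AJ (0.38 ± 0.04, adjusted p = 7.13e-11) and in WSB (0.38 ± 0.04, 3.99e-11). Its level was lower in B6 (-0.22 ± 0.05, 7.55e-05), Cast (-0.21 ± 0.05, 0.000133), NZO (-0.21 ± 0.05, 0.000113) and 129 (-0.16 ± 0.05, 0.00478). No difference among the 4 low strains passed the test. The table also lists the pseudogene Gm5560, whose transcript is 98.3% identical, and the authors' counting may have split reads between them.

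Slc25a3, which carries phosphate and copper into the matrix (chr10:91116574-91124059, minus strand), changed least of the 3. It was highest in 129, at 1206 to 1386 CPM with a median of 1268, and lowest in WSB, at 708 to 1171 with a median of 1087. All 129 libraries lay above all WSB libraries. The gene was higher in 129 (0.16 ± 0.05, adjusted p = 0.00427) and lower in WSB (-0.17 ± 0.05, 0.00302), but without WSB_1 the WSB difference was -0.10 (0.0195). Slc25a31, the ADP/ATP carrier of the testis, was near the limit of detection, from 0.0910 ± 0.116 CPM in Cast (SD, n = 7) to 0.959 ± 0.629 in 129 (SD, n = 8), with a median count of 11 per library. It was higher in 129 and WSB and lower in Cast and B6.

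The ATP-Mg/phosphate carriers Slc25a23, Slc25a24 and Slc25a25 are switched on by calcium and set the adenine nucleotide content of the matrix. All 3 passed the test over all strains, with 5 higher and 5 lower calls. Slc25a25 varied most: AJ libraries ran from 12.8 to 22.5 CPM with a median of 19.5, and Cast libraries from 6.34 to 9.51 with a median of 8.37, without overlap. Slc25a25 was higher in AJ (0.68 ± 0.11, adjusted p = 4.22e-07), NZO (0.55 ± 0.11, 3.59e-05) and NOD (0.50 ± 0.11, 0.000152). Its level was lower in Cast (-0.64 ± 0.13, 2.78e-05), WSB (-0.55 ± 0.12, 0.00015) and PWK (-0.48 ± 0.12, 0.00054), which are the wild-derived strains. Slc25a23 was the most abundant of the 3 and ranged from 43.1 ± 2.49 CPM in B6 to 57.0 ± 4.68 in Cast, and Slc25a24 from 6.83 ± 0.725 in Cast to 8.89 ± 0.747 in NZO.

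Carriers of di- and tricarboxylates, oxoacids and acylcarnitines connect the citric acid cycle and fatty acid oxidation with the cytosol. All 4 tested members passed, with 6 higher and 5 lower calls. Slc25a20, the carnitine-acylcarnitine translocase through which long-chain fatty acids enter for oxidation (chr9:108662088-108684641, plus strand), was lowest in PWK, at 85.1 to 110 CPM with a median of 95.2. NZO libraries ran from 138 to 197 CPM with a median of 160, and B6 from 132 to 177 with a median of 164. Every PWK library lay below every library of NZO and of B6. Slc25a20 was lower in PWK (-0.56 ± 0.09, adjusted p = 1.11e-07) and higher in NZO (0.31 ± 0.08, 0.0012) and B6 (0.27 ± 0.08, 0.00733). PWK differed from each of the other 7 strains, and NZO exceeded it by 0.76 ± 0.11 (2.12e-08).

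Slc25a11, the 2-oxoglutarate/malate carrier of the malate-aspartate shuttle (chr11:70644196-70647479, minus strand), had 349 to 398 CPM in AJ with a median of 377. WSB libraries had 147 to 315 CPM with a median of 280, below every AJ library. It was higher in AJ (0.25 ± 0.06, adjusted p = 0.000247) and lower in WSB (-0.29 ± 0.06, 7.34e-05) and PWK (-0.18 ± 0.06, 0.00856). Without WSB_1 the WSB difference was -0.20. Of its exons 8.92% overlap Rnf167, and whether strand was used in counting is not given in the sources used here.

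Slc25a10, the dicarboxylate carrier, was higher in AJ (9.30 ± 2.19 CPM, 0.39 ± 0.09, adjusted p = 0.000296) and lower in WSB (5.33 ± 0.774 CPM, -0.53 ± 0.10, 1.22e-05). Slc25a1, the citrate carrier that feeds fatty acid synthesis, had the same highest and lowest strain by mean, with far more spread. AJ libraries ran from 4.39 to 18 CPM with a median of 5.54, and WSB libraries from 2.37 to 6.38 with a median of 2.69, so the strains overlapped. Slc25a1 was higher in AJ (0.61 ± 0.17, 0.00315) and PWK (0.42 ± 0.17, 0.0351) and lower in WSB (-0.74 ± 0.20, 0.00197). Without AJ_3 the AJ difference fell to 0.30 ± 0.16 (0.158), so that call rests on this library. The AJ mean was then 6.04 CPM, below that of PWK, so the place of AJ as highest strain rests on AJ_3 too.

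Adipocyte markers moved with Slc25a1 in some libraries. Summed over 6 genes, all in the table, they stood at 58.8 CPM in AJ_3, the highest of its strain, where Slc25a1 was 18 CPM. In B6_2 they stood at 61.7 with Slc25a1 at 12.9, and in PWK_2 at 98.0 with 10.6. NOD_1 and WSB_1 were the highest of their strain in both, with markers of 82.5 and 50.3 CPM and Slc25a1 at 6.73 and 6.38. In AJ_6, by contrast, markers of 56.4 CPM went with Slc25a1 at 4.86. The marker sum ranged from 5.78 to 58.8 CPM in AJ and from 0.898 to 50.3 in WSB, and its part in the differences of Slc25a1 was not tested. In bulk tissue fewer cells of a type and less RNA per cell cannot be told apart.

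Amino acid and glutathione carriers formed the largest group, and all 10 tested members passed the test over all strains, with 22 higher and 16 lower calls. Of all genes tested 90.3% passed, so a full count in a small group is near the share of genes in general. Slc25a12 and Slc25a13 are the calcium-activated aspartate/glutamate carriers of the malate-aspartate shuttle, the first typical of muscle and brain and the second of liver. Slc25a12 (chr2:71271063-71367749, minus strand) had 212 to 262 CPM in Cast with a median of 230, and 166 to 195 in PWK with a median of 178, without overlap. Its level was higher in Cast (0.27 ± 0.07, adjusted p = 0.00106) and lower in PWK (-0.17 ± 0.07, 0.038). Without the Cast libraries 1, 5 and 6 the Cast difference was 0.18 (0.106). Slc25a13 (chr6:6041218-6217173, minus strand) had 152 to 187 CPM in AJ with a median of 161, and 120 to 194 in Cast with a median of 174. It was higher in AJ (0.44 ± 0.10, 0.000261) and Cast (0.42 ± 0.11, 0.000484). WSB_1 held 28.9 CPM while the other WSB libraries had 141 or more, and without it Slc25a13 was also higher in WSB (0.27 ± 0.05, 3.27e-05).

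Slc25a22, a mitochondrial glutamate carrier, was highest in PWK and Cast. PWK libraries ran from 42.7 to 60.4 CPM with a median of 51.6, and Cast from 30.0 to 65.8 with a median of 52.9. AJ libraries ran from 23.3 to 30.0 CPM with a median of 25.8, below every PWK library. The gene was higher in PWK (0.59 ± 0.08, adjusted p = 8.48e-09) and Cast (0.58 ± 0.09, 6.64e-08). Each differed from 6 of the other 7 strains, while the difference between them did not pass. Slc25a22 was lower in AJ (-0.49 ± 0.09, 9.99e-06), NZO (-0.26 ± 0.09, 0.0164) and 129 (-0.23 ± 0.09, 0.0445). Its paralogue Slc25a18 was near the limit of detection, between 0.0969 CPM in NZO and 0.370 in Cast.

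Slc25a29, a carrier of arginine, lysine and other basic amino acids (chr12:108825873-108835883, minus strand), was low in 129 and B6. The 129 libraries ran from 2.66 to 3.90 CPM with a median of 3.11, and the B6 libraries from 2.84 to 5.55 with a median of 4.09. NOD libraries ran from 7.78 to 12.4 CPM with a median of 8.85, above both. Slc25a29 was lower in 129 (-1.15 ± 0.14, adjusted p = 3.13e-10) and B6 (-0.75 ± 0.13, 4.15e-06), and the difference between these strains did not pass the test (0.165). Its level was higher in NOD (0.62 ± 0.11, 4.03e-06) and PWK (0.54 ± 0.11, 2.78e-05), and by 0.27 to 0.30 in AJ, NZO and WSB. NOD exceeded 129 by 1.55 on the log2 scale.

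Slc25a39 brings glutathione into mitochondria, and Slc25a40 is its close relative. Slc25a39 (chr11:102402985-102407946, minus strand) had 89.5 to 135 CPM in Cast with a median of 118, and 60.7 to 71.0 in 129 with a median of 64.8, without overlap. It was higher in Cast (0.65 ± 0.05, adjusted p = 4.69e-20) and PWK (0.14 ± 0.04, 0.0056) and lower in 129, AJ and B6. Slc25a40 (chr5:8422850-8454797, plus strand) had 6.38 to 7.80 CPM in PWK with a median of 6.95, and 7.92 to 19.0 in WSB with a median of 16.9. PWK libraries lay below all WSB libraries. Slc25a40 was lower in PWK (-0.78 ± 0.08, 5.75e-13), NOD (-0.41 ± 0.08, 1.81e-05) and Cast (-0.24 ± 0.08, 0.00957). The Cast call was lost without the Cast libraries 1, 5 and 6 (-0.23, 0.0697). Slc25a40 was higher in WSB (0.56 ± 0.07, 1.41e-09), AJ (0.43 ± 0.07, 1.4e-06), 129 (0.37 ± 0.07, 3.57e-05) and NZO (0.22 ± 0.07, 0.0132).

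Slc25a38, which brings in glycine for haem synthesis, ranged from 9.58 ± 0.742 CPM in PWK to 15.6 ± 1.29 in WSB. Slc25a15, the ornithine carrier of the urea cycle, was higher in B6 (15.0 ± 0.593 CPM, 0.25 ± 0.07, adjusted p = 0.00375) and PWK and lower in NOD (11.1 ± 0.993 CPM, -0.26 ± 0.07, 0.00287). Slc25a44, which carries branched-chain amino acids, ranged from 17.8 to 21.3 CPM and passed in a single strain, AJ (0.21 ± 0.05, 0.00121). Without the Cast libraries 1, 5 and 6, Slc25a15 was also higher in Cast (0.29, 0.00162) and Slc25a44 lower there (-0.23, 0.00397). Slc25a2, the second ornithine carrier, had counts in 38 of 63 libraries, at most 7.

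Cofactor and nucleotide carriers held all 3 members with a fully separated strain. Of 9 tested, 8 passed the test over all strains, with 23 higher and 19 lower calls. The median distance between highest and lowest strain was 0.97 log2 units, against 0.78 for all genes tested. Slc25a17 lies in the peroxisomal membrane and carries CoA, FAD and related cofactors (chr15:81318921-81360765, minus strand). Its NZO libraries ran from 5.39 to 6.10 CPM with a median of 5.72, and the other 55 libraries from 6.87 to 12.2. AJ libraries ran from 10.4 to 12.2 CPM with a median of 11.4. Slc25a17 was lower in NZO (-0.78 ± 0.05, adjusted p = 1.25e-21), Cast (-0.22 ± 0.05, 0.000126) and PWK (-0.18 ± 0.04, 0.000707). Its level was higher in AJ (0.34 ± 0.04, 1e-09), B6 (0.31 ± 0.04, 3.27e-08), 129 (0.23 ± 0.04, 3.31e-05) and NOD (0.19 ± 0.04, 0.000452). NZO differed from each of the other 7 strains, and AJ exceeded it by 0.98 ± 0.06 (1.05e-21). The call of a higher level in WSB (0.11 ± 0.04, 0.0419) was lost without WSB_1 (0.0746).

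**Figure D4:**
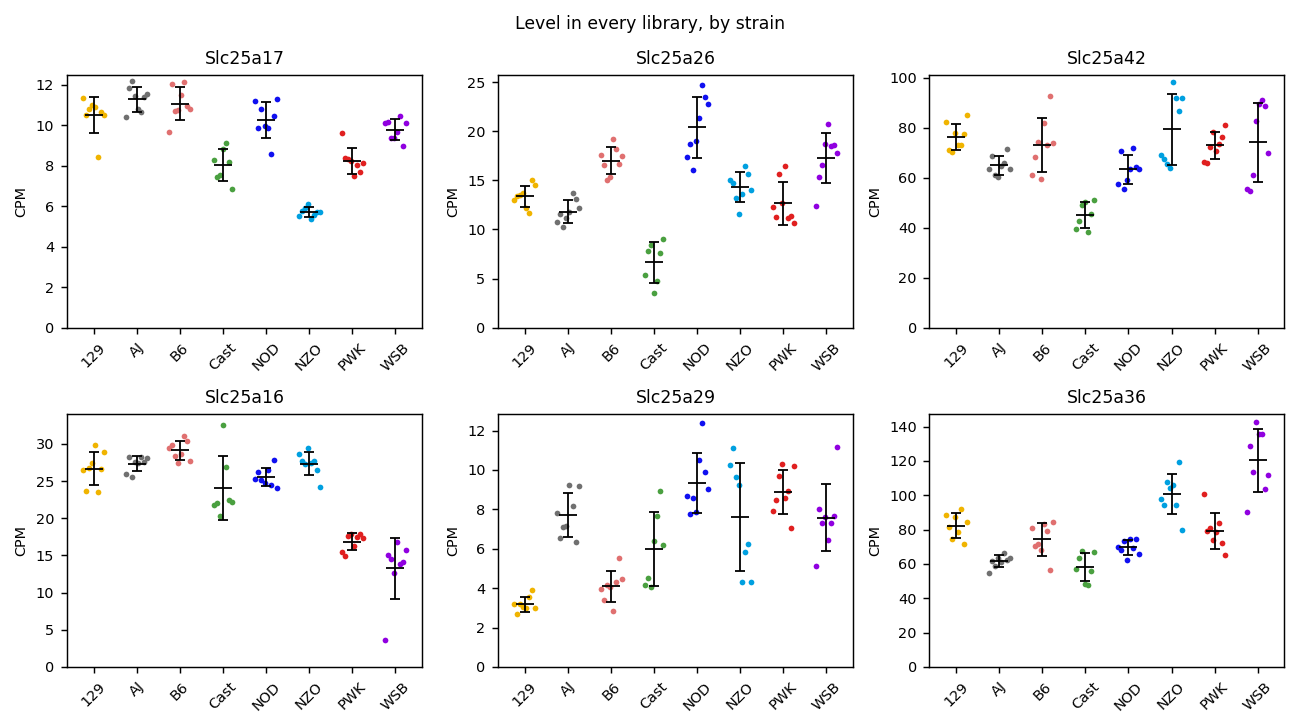
CPM of 6 carriers in every library by strain, with mean ± SD (n = 8, Cast n = 7), on linear axes. The NZO points of Slc25a17 (5.39 to 6.10) and the Cast points of Slc25a26 (3.48 to 9.02) and Slc25a42 (38.1 to 50.9) lie below all other points; the single low WSB point of Slc25a16 (3.65) is WSB_1.

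Slc25a26 imports S-adenosylmethionine, the methyl donor of the matrix (chr6:94500331-94604672, plus strand). Cast libraries ran from 3.48 to 9.02 CPM with a median of 7.56, and all other libraries from 10.3 to 24.7. NOD was highest, at 16.1 to 24.7 with a median of 20.2. The gene was lower in Cast (-1.18 ± 0.10, adjusted p = 4.96e-16) and AJ (-0.23 ± 0.09, 0.0283). It was higher in NOD (0.67 ± 0.08, 8.05e-11), WSB (0.40 ± 0.08, 3.5e-05) and B6 (0.37 ± 0.08, 0.000191). Without the Cast libraries 1, 5 and 6 the Cast difference was -0.87 ± 0.10 (1.03e-10), and without AJ_3 the AJ call was lost (0.0766). The reference GRCm38 is a B6 genome, and loss of reads to sequence differences in the other strains was not tested.

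Slc25a42 and Slc25a16 are the carriers tied to coenzyme A in the matrix. Slc25a42 (chr8:70184340-70212305, minus strand) had 38.1 to 50.9 CPM in Cast with a median of 45.3, against 54.6 to 98.3 in all other libraries. Slc25a42 was lower in Cast (-0.67 ± 0.08, adjusted p = 5.99e-11) and higher in NZO (0.26 ± 0.07, 0.00149) and 129 (0.19 ± 0.07, 0.025), and Cast differed from each of the other 7 strains. Without WSB_1 it was also higher in WSB (0.20, 0.0156). Slc25a16 (chr10:62920633-62946498, plus strand) was low in other strains, WSB and PWK. WSB libraries ran from 3.65 to 16.8 CPM with a median of 14.3, PWK from 15.0 to 17.9 with a median of 17.4, and B6 from 27.5 to 31.0 with a median of 29.1. No library of WSB or PWK reached the B6 range. Slc25a16 was lower in WSB (-0.91 ± 0.09, 1.04e-12) and PWK (-0.52 ± 0.09, 1.24e-06), and higher in B6 (0.39 ± 0.08, 0.000139), NZO, AJ and 129. Without WSB_1 the WSB mean was 14.6 ± 1.35 CPM (SD, n = 7) and the difference -0.77 (8.37e-20). The call in 129 (0.24 ± 0.08, 0.0231) was lost without 129_6 (0.0634) or 129_9 (0.0537).

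Slc25a51, the NAD carrier, stayed within 53.7 ± 3.20 CPM in AJ and 68.2 ± 4.47 in NOD. Slc25a51 was higher in NOD, B6 and NZO and lower in AJ, WSB, Cast and PWK. Slc25a32, tied to folate and FAD, ranged only from 9.58 to 11 CPM and passed in no strain and in 0 of 28 pairs.

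Slc25a33 and Slc25a36 carry pyrimidine nucleotides and moved in opposite directions in 3 strains. Slc25a36 (chr9:97074961-97111157, minus strand) had 90.1 to 143 CPM in WSB with a median of 121, and 47.7 to 67.8 in Cast with a median of 57.2, without overlap. It was higher in WSB (0.70 ± 0.06, adjusted p = 5.82e-16) and NZO (0.41 ± 0.06, 9.2e-08) and lower in Cast (-0.50 ± 0.07, 7.1e-09), AJ (-0.41 ± 0.06, 4.8e-07) and NOD (-0.20 ± 0.06, 0.0105). Slc25a36 differed in 21 of 28 pairs of strains, where 41.2% of all gene-by-pair tests passed. Slc25a33 (chr4:149744036-149774277, minus strand) had 14.4 to 45.8 CPM in Cast with a median of 17.3, 6.59 to 12.9 in WSB with a median of 9.20, and 5.50 to 10.6 in PWK with a median of 8.55. Cast libraries lay above all WSB and PWK libraries. Slc25a33 was higher in Cast (0.99 ± 0.13, 5.67e-10) and lower in PWK (-0.52 ± 0.14, 0.000908), NZO (-0.39 ± 0.14, 0.0174) and WSB (-0.39 ± 0.14, 0.0161). The 45.8 CPM came from Cast_1, which also had the skeletal muscle markers, and without it the Cast difference was 0.69 ± 0.11 (4.87e-07). The call in WSB was lost without WSB_1 (0.0610), and that in NZO without NZO_1 (0.0651) or NZO_3 (0.0553).

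Both pyrimidine carriers hold the letters CACGTG, the E-box read the same on both strands, in the 300 bases around a RefSeq start (250 before to 50 after, GRCm38.p6). RefSeq promoters matched 34 of the 44 members, with 44 promoters in all. CACGTG stood in 8 of these (18.2%) from 7 genes, and in 7.15% of all 32851 promoters. The windows below are shown because they include both pyrimidine carriers and give the sequence around each match, 5′ to 3′, with CACGTG in capitals.
Slc25a33, chr4:149774250-149774295, minus strand: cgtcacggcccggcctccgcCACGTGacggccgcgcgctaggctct
Slc25a36, chr9:97111203-97111248, minus strand: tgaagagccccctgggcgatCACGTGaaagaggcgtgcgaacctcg
Slc25a13, chr6:6217273-6217318, minus strand: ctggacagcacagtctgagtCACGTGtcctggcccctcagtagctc
Slc25a15, chr8:22398329-22398374, minus strand: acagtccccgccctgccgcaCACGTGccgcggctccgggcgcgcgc
Slc25a1, chr16:17928433-17928469, minus strand: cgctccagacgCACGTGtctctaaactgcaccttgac
Slc25a31, chr3:40708758-40708803, plus strand: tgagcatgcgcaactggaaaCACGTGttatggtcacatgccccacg
Slc25a14, chrX:48623374-48623419, plus strand: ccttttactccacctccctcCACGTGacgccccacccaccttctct

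These 7 genes had no shared strain pattern. By strain mean, Slc25a36 was highest in WSB, Slc25a33 in Cast, and Slc25a13 and Slc25a1 in AJ. Slc25a15 was highest in B6, Slc25a31 in 129, and Slc25a14 in PWK. The Slc25a14 window lies in 2 of its 3 promoters. Searched on both strands, CCAAT stood in 22 of the 44 promoters (50%, against 37.4% of all promoters) and TATAAA in 2 (4.55%, against 13.6%). TCAAGGTCA, the NRF1 element and CCGGAAGTG stood in 0 of them, and in 0.423%, 0.971% and 2.03% of all promoters. A match is a description of letters and not a measured binding site, and a missing match says nothing about a factor.

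Of the 2 iron importers, mitoferrin-1 (Slc25a37), which supplies iron for haem in developing red cells, passed the test over all strains, and mitoferrin-2 (Slc25a28), used by most other cells, did not. Slc25a37 was higher in NOD (29.1 ± 1.85 CPM, 0.32 ± 0.07, adjusted p = 0.000128) and NZO (0.24 ± 0.07, 0.00415). Slc25a37 was lower in 129 (19.9 ± 1.74 CPM, -0.31 ± 0.07, 0.000536), Cast (-0.23 ± 0.08, 0.00678) and PWK (-0.23 ± 0.07, 0.00549). Without Cast_1 the Cast call was lost (-0.17, 0.0524). In WSB the difference was -0.03 (0.788), and without WSB_1 Slc25a37 was lower there (-0.20, 0.00266). With all libraries, Slc25a28 was lower in WSB alone (-0.25, 0.0410), and without WSB_1 the WSB difference was -0.34 (0.00975). Slc25a28 was also lower in Cast without Cast_1 (-0.26, 0.0485) and without the Cast libraries 1, 5 and 6 (-0.65, 1.38e-05). Red cell markers, summed over 6 genes that are all in the table, had medians of 3771 CPM in NZO, 3751 in NOD, 2609 in AJ, 2442 in 129, 2186 in PWK, 1930 in B6, 1562 in WSB and 1123 in Cast. NZO_8 had the highest Slc25a37 of its strain (34.2 CPM) with the lowest marker sum (2903). WSB_1 had 41.5 CPM of Slc25a37 and 4036 CPM of these markers, the highest of WSB in both. The part of red cells in the Slc25a37 differences was not tested.

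The relatives of the uncoupling proteins were low in heart. Slc25a30, the kidney mitochondrial carrier 1, had 6.90 to 11.7 CPM in Cast with a median of 8.67, and 2.88 to 5.06 in 129 with a median of 4.16, without overlap. Its level was higher in Cast (0.98 ± 0.09, adjusted p = 4.3e-15) and PWK (0.27 ± 0.09, 0.00679) and lower in 129, WSB and NOD. The WSB call (-0.31 ± 0.10, 0.00637) was lost without WSB_1 (0.0537). Slc25a27, an uncoupling protein relative best known from neurons, ranged from 2.63 ± 0.580 CPM in PWK to 4.66 ± 1.44 in Cast. Its Cast call (0.45 ± 0.12, 0.00127) was lost without Cast libraries 1, 5 and 6 (0.13, 0.505). Slc25a14, another relative from brain, did not pass over all strains and ranged from 1.39 to 1.94 CPM.

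Among carriers of the outer membrane or without a settled substrate, 4 of 6 tested members passed, with 9 higher and 9 lower calls. Slc25a34 (chr4:141618824-141623821, minus strand) had 44 to 138 CPM in Cast with a median of 79.2, and 129 to 178 in B6 with a median of 153. It was lower in Cast (-0.76 ± 0.12, adjusted p = 1.17e-07) and higher in B6 (0.32 ± 0.10, 0.0112) and NZO (0.29 ± 0.10, 0.0164). The 138 CPM came from Cast_1, and without it the Cast libraries had at most 86.0 CPM and the difference was -0.95 (2.05e-10). Cast differed from each of the other 7 strains.

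Slc25a53 was highest in Cast, at 3.07 to 5.32 CPM, and in PWK, at 2.80 to 4.04, and the next strain was NZO with 1.78 ± 0.424. Slc25a53 was higher in Cast (1.20 ± 0.11, adjusted p = 2.75e-14) and PWK (0.99 ± 0.11, 3.27e-12). Without WSB_1 it was also lower in WSB (-0.43, 0.00755). Slc25a47, a liver carrier, was lower in Cast (0.292 ± 0.180 CPM) than in 129 (2.20 ± 0.663 CPM) and differed in 21 of 28 pairs. Slc25a35 was higher in PWK (8.17 ± 1.08 CPM, 0.52 ± 0.09, 5.15e-07) and lower in 129 (4.61 ± 0.887 CPM, -0.42 ± 0.10, 0.000543). Of its exons 31.3% overlap Rangrf, and its 129 call was lost when the counts of both genes were added (-0.04, 0.580). Rangrf is a different gene, so the sum does not show whether Slc25a35 alone is lower in 129. Slc25a46, an outer membrane protein tied to mitochondrial fission, ranged from 68.8 to 81.8 CPM and passed in no strain, but without WSB_1 it was higher in WSB (0.11, 0.0189). Slc25a45 passed only in WSB (0.26 ± 0.10, 0.0341), a call lost without WSB_1 (0.806).

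The balance between related carriers is given as log2 ratios of their levels per kb, as a description without a test. Slc25a4 exceeded Slc25a5 by 2.95 ± 0.09 log2 units in AJ (SD, n = 8) and by 3.73 ± 0.19 in Cast (SD, n = 7). NOD (3.06), WSB (3.12) and PWK (3.26) lay nearer to AJ, and NZO (3.46), B6 (3.50) and 129 (3.56) nearer to Cast. Slc25a36 over Slc25a33 was lowest in Cast, at -0.81 ± 0.57, and highest in WSB, at 1.38 ± 0.39. The sign in Cast depends on the length used: per length of the longest transcript, an alternative added after the data were seen, every value of this ratio is 0.88 higher, with 0.07 ± 0.57 in Cast and 2.25 ± 0.39 in WSB. The differences between strains are not touched by the length. Slc25a39 exceeded Slc25a40 by 3.80 log2 units in both 129 and AJ and by 5.14 in Cast and 5.18 in PWK. Slc25a12 over Slc25a13 ranged from -0.56 ± 0.11 in AJ to -0.03 ± 0.11 in 129, or from -0.63 to -0.11 with the longest transcript.

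**Figure D5:**
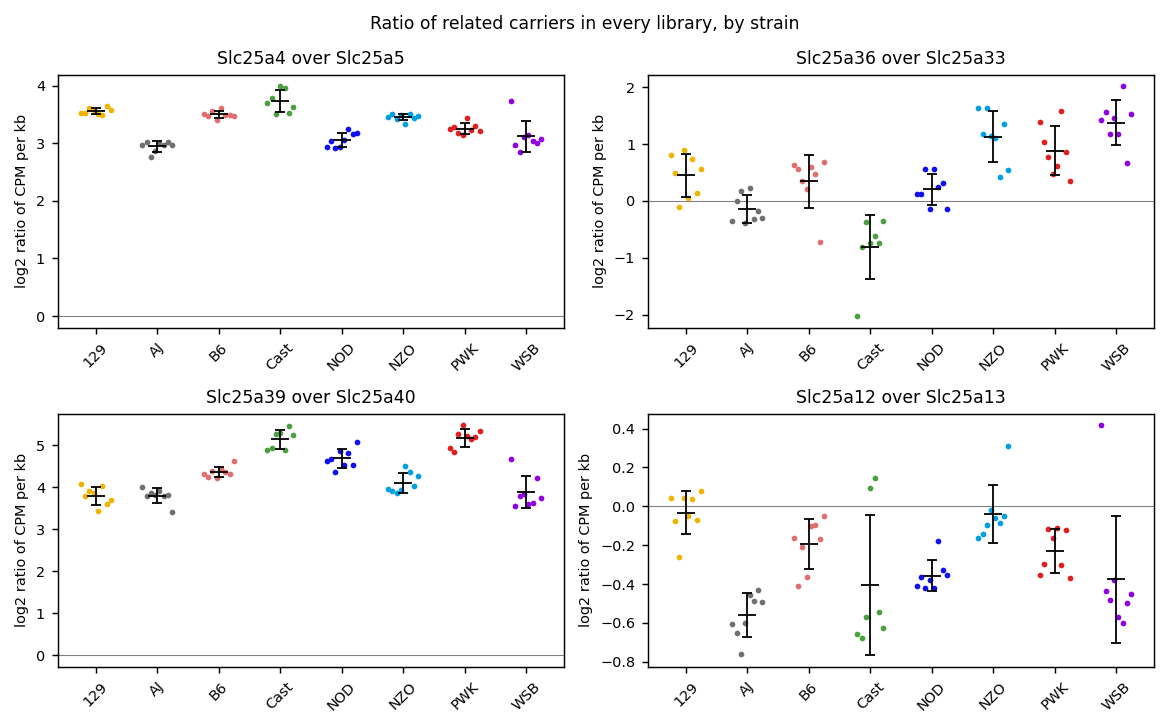
Log2 ratio of levels per kb for 4 pairs of related carriers in every library, by strain, with mean ± SD (n = 8, Cast n = 7); a value of 0 means equal levels per kb of merged exons. For Slc25a36 over Slc25a33 Cast lies lowest (mean -0.81) and WSB highest (1.38); with the longest transcript all points of this pair move up by 0.88 and the Cast mean turns to 0.07, and the highest WSB point of Slc25a12 over Slc25a13 (0.42) is WSB_1.

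Genes that work with the carriers were taken as lists. Their counts stand beside 90.3% of all genes tested that passed over all strains, and no list was tested as a set. Carriers under other symbols (Ucp1, Ucp2, Ucp3, Mtch1, Mtch2) passed over all strains in 5 of 5, with 10 higher and 8 lower calls. Ucp2 ranged from 15.0 ± 2.44 CPM in PWK to 166 ± 17.4 in Cast (adjusted p = 2.63e-32), a wider range of strain means than that of any tested member. Ucp1, the uncoupling protein of brown fat, had 13.3 ± 22.5 CPM in PWK and 0.00992 in WSB. Brown adipocyte markers, the sum of Ucp1 itself, Cidea and Elovl3, reached 86.0 CPM in PWK_4 and at most 42.4 in any library of another strain. Because this sum includes Ucp1, it is not a separate measure of brown fat. The part of brown fat in the Ucp1 level was not tested.

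The pyruvate carrier subunits passed in 2 of 2, with 7 higher and 5 lower calls, and had opposite extremes in Cast. Mpc1 was highest there (389 ± 38.1 CPM, against 205 ± 9.45 in PWK) and Mpc2 lowest (135 ± 20.9, against 208 ± 10.3 in AJ). The import machinery for carriers passed in 12 of 13, with 19 higher and 21 lower calls. Agk, a subunit of the inner membrane carrier translocase, ranged from 11.4 ± 1.18 CPM in NZO to 22.7 ± 1.45 in PWK, and the chaperone Timm9 from 5.59 ± 0.590 in PWK to 9.74 ± 1.14 in NZO. Tomm70a, the import receptor for carriers, did not pass (adjusted p = 0.669).

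The outer membrane channels passed in 3 of 3, with 3 higher and 4 lower calls, and Vdac1 ranged from 611 ± 32.5 CPM in Cast to 821 ± 26.9 in AJ. The carnitine shuttle passed in 5 of 5, with 8 higher and 6 lower calls. The liver-type acyltransferase Cpt1a ranged from 44.7 ± 3.22 CPM in WSB to 80.6 ± 9.66 in Cast, and the carnitine importer Slc22a5 from 18.3 ± 2.80 in Cast to 30.0 ± 2.71 in NZO. The enzymes of the malate-aspartate shuttle passed in 4 of 4, with 4 higher and 6 lower calls. Got1, the cytosolic aspartate aminotransferase, ranged from 523 ± 38.6 CPM in PWK to 1119 ± 329 in Cast, the 2 strains that were also lowest and highest for Slc25a12. The other enzymes had other extremes: Mdh1 and Got2 were lowest in PWK but highest in 129, and Mdh2 was lowest in NZO and highest in Cast. The Slc25a12 difference in Cast did not pass without the Cast libraries 1, 5 and 6 (adjusted p = 0.106). The calcium uniporter complex passed in 6 of 6, with 9 higher and 11 lower calls.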

How the data were processed

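Heart RNA was profiled as polyA libraries with added ERCC spike-in RNA, per the labels' protocols. The values analysed are estimated counts of each gene as deposited by the authors (expected counts), without normalization, on GRCm38 per the submitters' processing notes; 18.4% of values are not whole (tolerance 1e-06) and were rounded. A second deposited table holds log2 variance-stabilised values, made with DESeq2 per the submitters' processing notes, and served only as an alternative. The sources used here name no aligner or counter and do not say whether strand was used.

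Genes were kept with edgeR's filterByExpr (minimum count 10). One edgeR 4.0.16 model (R 4.3.3, TMM, robust quasi-likelihood, 1 coefficient per strain, 55 residual degrees of freedom) was tested over all strains at once, in 8 contrasts of a strain with the mean of the other 7, and in 28 pairs. Each was adjusted by Benjamini-Hochberg over 16425 genes, with a threshold of 0.05. Values in parentheses after a fold change are these adjusted p-values. The prior count for log2 CPM was 2, and lengths were merged exons of GENCODE M21. The scripts were tested on simulated counts.

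Members and lists were chosen with earlier results of these data known. Carriers best known in heart or of main metabolic steps were described whatever their values, with up to 2 members of largest change per strain and direction among those at a mean log2 CPM of at least 1; other members were described more briefly. A member that is counted in the totals is not reported here by itself. Of the other lists, up to 2 genes of widest range were named, besides genes that did not pass. Alternatives were DESeq2 1.42.0 size factors and tests, scaling on nuclear genes, limma 3.58.1 on the log2 table, other filters and a replicate block. Further ones were counts of a copy or an overlapping gene added, and libraries left out.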

Additional observations from a re-analysis of the deposited data

Results flagged for a closer look

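In 184 groups of libraries (a named member in a strain), 21 had a highest or lowest library set apart from the rest by Dixon's criterion at the 95% level, where chance gives about 1 in 20, or 9.2. Library WSB_1 accounted for 10 of them. In WSB_1 Slc25a1 was the highest of its strain (6.38 CPM). The other 9 were the lowest of their strain there: Slc25a3 (708 CPM, next 984), Slc25a5 (188, next 248), Slc25a11 (147, next 258), Slc25a12 (74.7, next 198), Slc25a13 (28.9, next 141), Slc25a15 (6.91, next 11.6), Slc25a16 (3.65, next 12.6), Slc25a20 (53.6, next 117) and Slc25a34 (54.0, next 108). Cardiomyocyte markers summed to 36544 CPM in the same library, against a WSB median of 62764, and their part was not tested.

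NZO_8 was set apart and low for Slc25a11 (268 CPM, next 332) and Slc25a13 (73.4, next 106). Its cardiomyocyte marker sum, 45932 CPM against an NZO median of 53036, was the lowest of its strain. So were its atrial, endothelial, adipocyte and red cell sums. Its macrophage (457 CPM), fibroblast (1226) and B cell (5.14) sums were the highest. The part of these cell types was not tested. B6_2 was high for Slc25a1 (12.9 CPM, next 6.69). AJ_3 was high for Slc25a1 (18, next 9.66) and Cast_1 for Slc25a33 (45.8). Other libraries were set apart for 1 member each. The high ones were 129_3 for Slc25a4 (3404 CPM, next 3111), B6_3 for Slc25a4 (3056, next 2855), B6_7 for Slc25a33 (18.4, next 11.6), AJ_8 for Slc25a40 (17.7, next 15.1) and PWK_1 for Slc25a17 (9.60, next 8.36). In 129_7, Slc25a17 was low (8.41, next 10.5).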

How the results depend on the processing

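No count of members past a test moved by more than 1.5 times under any alternative tried, and none of the 149 single-strain calls of members turned its direction. Of these 149 calls, 148 held with DESeq2 size factors, 146 with scaling on nuclear genes, 147 with DESeq2 tests, 142 with limma on the deposited log2 values, and 145 with no filter on low counts. With a minimum mean log2 CPM of 1, 131 held and 18 were not tested. Leaving out WSB_1 kept 145 and gained 27, leaving out Cast libraries 1, 5 and 6 kept 140 and gained 16, and leaving out AJ libraries 2, 7 and 8 kept 138 and gained 0. The AJ setting lost 11 calls, the most of any setting, and they are not named here. Counts of near-identical transcripts were also added: the pseudogene Gm5560 to Slc25a5, and Rangrf to Slc25a35. Rangrf is not a copy but a different gene that overlaps Slc25a35 on the opposite strand. With these added 148 held, and the call lost was Slc25a35 in 129. Leaving out each library in turn gave 36 to 38 members past the test over all strains. Same-numbered libraries of different strains had a mean correlation of 0.042 in their deviations from the strain means, from -0.162 to 0.377. For different numbers the mean was -0.00534. Of 63 libraries, 14 correlated best with a library of their own number. The number to be had by chance was not worked out, so whether same-numbered libraries share anything was not tested. With the replicate number as a block, 144 of the 149 calls held. Members with few counts, such as Slc25a18 and Slc25a31 with medians of 7 and 11 per library, are limited by depth.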
